A study of Arabidopsis thaliana with 6 samples.

Results

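The transcripts described here are those of the plastid and mitochondrial genomes of Arabidopsis thaliana, measured in whole seedlings given the synthetic auxin 2,4-D with or without brassinazole, an inhibitor of brassinosteroid synthesis. Members were the probe sets of the Affymetrix array with ID numbers from 244901 to 245050, a block that holds organelle genes. The block held 150 of the 22810 probe sets of the table, and 15 of them were left out because the platform annotation gave a nuclear gene, 5 with a locus name starting AT2G07 and 10 with one starting AT2G26. This left 135 members. Of these, 77 were assigned to 76 plastid genes and 13 to mitochondrial genes. The other 45 had no annotation entry and were counted with neither genome, and 10 of them had ID numbers among those of the probe sets of chromosome 2.

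All seedlings were of the Columbia ecotype, with no mutation or transgene named in the labels, and were 10 d old, grown under 16 h light and 8 h dark. The treatment in liquid medium lasted 8 h. In the brassinazole group (3 arrays) the medium held 1e-07 M 2,4-D and 1e-06 M brassinazole, and in the auxin group (3 arrays) it held 1e-07 M 2,4-D alone. Every seedling thus received auxin, and seedlings without it were not analysed here. Per the labels, each batch of RNA was prepared from 3 seedlings before pooling. The sample titles call the 3 replicates of each group biological, and the labels do not say how the pools were divided among the arrays.

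Plastids and mitochondria keep small genomes of their own. The plastid genome encodes core subunits of the photosystems, the cytochrome b6f complex, the ATP synthase, the NDH complex, the large subunit of Rubisco, and part of the plastid ribosome. It is transcribed by 2 kinds of enzyme, a bacterial-type polymerase whose core subunits are the plastid rpo genes and which reads most photosynthesis genes, and a phage-type polymerase encoded in the nucleus. Many plastid genes are transcribed together with their neighbours and then cut, spliced, edited and trimmed. The mitochondrial genome encodes subunits of the respiratory complexes, ribosomal proteins and factors that mature cytochrome c. In both organelles a poly(A) tail marks RNA for degradation, and most mature transcripts carry none. The standard Affymetrix protocol named in the labels primes on poly(A), so how fully a given organelle transcript was captured is unknown, and signals of different probe sets are not set against each other here.

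With brassinazole a subset of plastid transcripts changed, some higher and some lower, all by less than 2-fold. Of the 77 plastid probe sets, all of which were bright enough to be tested, 9 rose and 9 fell (limma, Benjamini-Hochberg adjusted p under 0.05 over all 17059 probe sets tested). That is 23.4% of the plastid probe sets, where 7.52% of all probe sets tested passed, 3.44% higher and 4.08% lower. Those that fell included psaA, psbB and psbD, which encode core subunits of the photosystems, and those that rose included the ribosomal protein genes rpl20 and rpl16 and the NDH subunit gene ndhF. The median log2 change of the plastid probe sets was 0.04, against -0.01 over all probe sets tested. The median of their absolute log2 changes was 0.20, against 0.13. In 24 plastid probe sets, 31.2%, the groups had no overlap, close to the 27.2% of all probe sets tested. Of the 24, 11 were higher and 13 lower with brassinazole, beside 12.9% and 14.3% of all probe sets tested. Over all 135 members, 109 were tested, 13 rose and 9 fell, and 0 of the 109 differed by 2-fold or more.

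These counts depended on the fit. Without the mean-variance trend 7 members passed higher and 1 lower, with no filter on dim probe sets 7 and 5, and with both auxin 1 and brassinazole 3 left out, because their control signals were unusual, 10 and 4. Fewer probe sets of the whole table passed in these fits too, 4.43%, 3.9% and 4.78% in the same order, against 7.52%. Without the trend, members lower went from 9 to 1, a steeper drop than the 696 to 439 over all probe sets tested. Those higher went from 13 to 7, beside 586 to 316. Of the 77 plastid probe sets, 5 rose and 1 fell in that fit, against 9 and 9 in the main fit. With 1 array left out the counts were 8 to 13 higher and 4 to 9 lower. The count of those lower was 4 without auxin 1, 5 without auxin 3 and 6 without brassinazole 3, and that of those higher was 8 without auxin 2 or without brassinazole 2. In each of these fits with 1 array left out, fewer probe sets of the whole table passed too, 4.81% to 6.78%.

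Several RNA controls moved with the groups, while summed markers of green tissue and root overlapped. The 5S rRNA control read 230 to 284 on the brassinazole arrays and 134 to 174 on the auxin arrays. The ratio of the 3' to the 5' actin control, which reports RNA integrity, was 18.8 to 21.1 on the brassinazole arrays and 12.3 to 17.3 on the auxin arrays. For ubiquitin the ratio was lower with brassinazole, at 2.59 to 3.0, against 3.14 to 3.54. For GAPDH the groups overlapped, at 1.38 to 1.69 with brassinazole and 1.26 to 1.41 with auxin alone. The array's second set of these controls overlapped between groups for actin, ubiquitin and GAPDH, with actin ratios of 2.21 to 2.43 and 2.31 to 2.52. The 25S rRNA control was at 180 to 212 on the brassinazole arrays and at 981, 215 and 174 on auxin 1, 2 and 3. Their part in the changes of organelle transcripts was not tested. Arrays of whole seedlings cannot tell fewer plastids or less green tissue from less RNA per plastid. Of 45 nuclear photosynthesis loci, 7 were named and tested, and 0 passed (1 probe set each, limma adjusted p of 0.5 to 0.99, none at an unadjusted p under 0.05), with log2 changes of -0.10 to 0.07. Their summed signal was 110466 to 133251 with brassinazole and 121579 to 123393 with auxin alone. Of 10 root marker loci, 3 were named by the annotation and tested, and 0 passed (limma, 2 at an unadjusted p under 0.05). Their summed signal, most of it from PYK10, was 14841 to 17710 and 14027 to 17862. Of these, PYK10, a root beta-glucosidase gene, was at 15910 ± 1430 and 15030 ± 2090, and EXPA7 and EXPA18 of root hairs had log2 changes of -0.37 and -0.44 (adjusted p = 0.0916 and 0.0806). For EXPA7 and for EXPA18 all brassinazole values lay below all auxin values, as in 14.3% of all probe sets tested.

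Photosystem I, which passes electrons to ferredoxin, had 7 members, of which 3 fell and 1 rose. That is 57.1%, where 7.52% of all probe sets tested passed. psaA encodes 1 of the 2 proteins of the reaction centre core. Its signal was 1543, 1780 and 1127 on brassinazole 1, 2 and 3, against 2514, 2260 and 2530 on auxin 1, 2 and 3. All brassinazole values lay below all auxin values, with brassinazole 3 lowest. The log2 change was -0.73 ± 0.130 (SE, limma adjusted p = 0.00307), a 1.66-fold fall. The assembly factor gene ycf4 fell to 1489, 1467 and 1268, against 1914, 1768 and 2193 with auxin alone (log2 change -0.47 ± 0.0965, adjusted p = 0.00799). psaC, for the subunit that binds the terminal iron-sulphur clusters, averaged 947.5 ± 91.8 with brassinazole and 1192 ± 62.4 with auxin alone (SD, n = 3 each, limma adjusted p = 0.0427). Its call was lost without auxin 1, 2 or 3 or brassinazole 2 or 3 (adjusted p of 0.0675 to 0.151) and with arrays centred on their median (0.0504). In the opposite direction, psaI, for a small membrane subunit, rose to 4183 ± 179 with brassinazole, against 3361 ± 349 with auxin alone (adjusted p = 0.0389). This was lost without auxin 2 or 3 or brassinazole 1 or 2 (0.0729 to 0.15). The partner of psaA, psaB, was at 13310 ± 1180 and 14140 ± 554 and did not pass (adjusted p = 0.584). psaJ had a log2 change of 0.23 (adjusted p = 0.177, and 0.0302 without brassinazole 1), and the assembly factor gene ycf3 one of 0.19.

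Photosystem II, which splits water, had 15 members, of which 3 fell, 1 rose and 11 did not pass. The share that passed was 26.7%, beside 7.52% of all probe sets tested. psbD encodes the D2 protein of the reaction centre. It read 578, 582.1 and 546.9 with brassinazole, close together, against 779.8, 755.7 and 1126 with auxin alone, where auxin 3 stood high (log2 change -0.60 ± 0.128, limma adjusted p = 0.00963). The groups did not overlap. psbB, for the core antenna protein CP47, read 1821, 1651 and 1148 with brassinazole and 2612, 1819 and 2723 with auxin alone (log2 change -0.63 ± 0.163, adjusted p = 0.0304). Here the groups met, since brassinazole 1 and auxin 2 were nearly equal. psbH, for a small core subunit, fell to 5028 ± 905, against 6868 ± 691 with auxin alone (adjusted p = 0.0289). The calls of psbB and psbH were lost without auxin 1 (0.126 and 0.0818), auxin 3 (0.145 and 0.132) or brassinazole 3 (0.0911 and 0.0637), and that of psbH also with the replicate number as a block (0.0511). Without brassinazole 3 their log2 changes were -0.43 and -0.31. psbZ, for a small antenna-linked subunit, rose to 5676 ± 417, against 4539 ± 188, though not without auxin 1 or 2 or brassinazole 1 or 2 (adjusted p of 0.0595 to 0.131). psbA, which encodes the D1 protein, the partner of D2, was at 7367 ± 1060 and 6863 ± 637 (adjusted p = 0.666). psbC, for the antenna protein CP43, was at 2445 ± 173 and 2709 ± 425. psbM, for a small subunit, spread widely with brassinazole, at 25380, 22150 and 15510, against 19410, 17890 and 18610 (adjusted p = 0.595, and 0.0262 without brassinazole 3). The lowest of the members that did not pass was psbE, for a subunit of cytochrome b559, at 7902 ± 496 and 9258 ± 1060 (log2 change -0.22, adjusted p = 0.161), and the highest was psbN, needed for assembly of the complex, at 282.7 ± 52.6 and 237.8 ± 68.4 (log2 change 0.26, adjusted p = 0.434). psbF, psbI, psbJ, psbK, psbL and psbT, for small subunits, had log2 changes of -0.08 to 0.04.

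**Figure D1:**
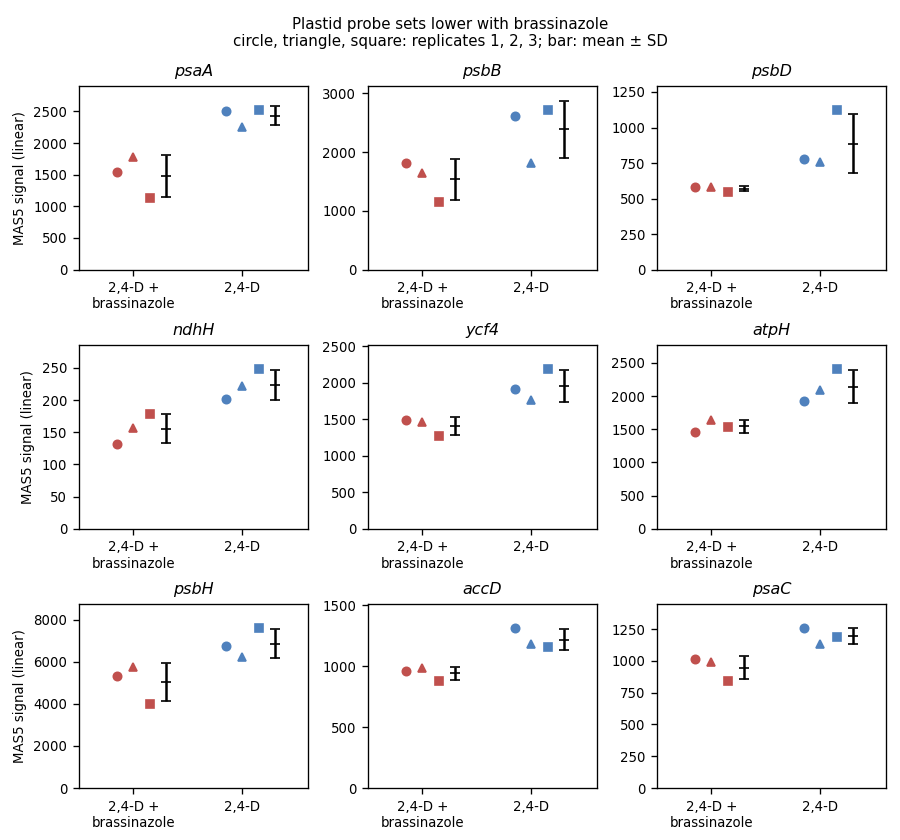
Signal (linear, axes from 0) of the 9 plastid probe sets that fell, on the 3 arrays with 2,4-D plus brassinazole (left) and the 3 with 2,4-D alone (right), with mean ± SD. Brassinazole 3 (square) is the lowest of the 6 arrays in 7 of the 9, and auxin 3 the highest in 7. The 9 were chosen as lower on these same arrays, so extremes on these sides follow in part from the choice.

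In the cytochrome b6f class, which links the photosystems and here includes the haem attachment gene ccsA, 1 of 7 members passed. This 14.3% stands beside 7.52% of all probe sets tested. petL, for a small subunit of the complex, rose to 4398, 4341 and 3698 with brassinazole, against 2961, 2942 and 2908 with auxin alone, a 1.41-fold rise (log2 change 0.49 ± 0.0827, limma adjusted p = 0.00215). The 3 auxin values were nearly the same, and all brassinazole values lay above them. petG, for another small subunit, lay the other way, at 654.1 ± 143 and 914.1 ± 187, without passing (log2 change -0.48, adjusted p = 0.084). petB, for cytochrome b6, was at 20120 ± 2340 and 21260 ± 1050 (adjusted p = 0.652). petA, for cytochrome f, was at 5367 ± 177 and 5411 ± 721. ccsA read 9957, 9673 and 9906 with brassinazole and 9194, 9109 and 8413 with auxin alone, a difference without overlap that did not pass (log2 change 0.15, adjusted p = 0.268). The ATP synthase had 6 members, of which 1 fell (16.7%, beside 7.52% of all probe sets tested). This was atpH, for the subunit of the membrane ring, at 1455, 1640 and 1531 with brassinazole and 1926, 2091 and 2411 with auxin alone (log2 change -0.47 ± 0.0928, adjusted p = 0.00661). The other 5 had log2 changes of -0.32 to 0.26. The groups had no overlap in 5 of the 6 members, with atpH, atpA and atpF lower and atpE and atpI higher. Of all probe sets tested, 27.2% had no overlap. For atpA the highest brassinazole value was 11870 and the lowest auxin value 11880 (limma adjusted p = 0.389). atpI, for a membrane subunit, read 204.5, 218.2 and 226.0 with brassinazole and 171.2, 179.9 and 182.0 with auxin alone, without passing (adjusted p = 0.175). Members for the catalytic head and stalk did not pass either, among them atpB, at 22750 ± 1600 and 23210 ± 1300, and atpE, at 23130 ± 1530 and 20590 ± 509 (adjusted p = 0.227). rbcL, for the large subunit of Rubisco, the enzyme that fixes carbon dioxide, was at 1600.0 ± 54.7 and 1530.0 ± 142 (adjusted p = 0.721).

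The NDH complex, which carries cyclic electron flow around photosystem I, had 11 members, of which 2 rose and 1 fell. The share that passed was 27.3%, beside 7.52% of all probe sets tested. ndhF, for a large membrane subunit, read 213.6, 206.9 and 161.8 with brassinazole and 99.39, 124.4 and 91.99 with auxin alone. Even the lowest brassinazole value, on array 3, lay above the highest auxin value. The log2 change of 0.79 ± 0.147 (limma adjusted p = 0.00424) was nearly the same as that of rpl20. With a pseudocount of 64 it was 0.61, below the 0.735 of rpl20. ndhE rose to 1446 ± 159, against 992.0 ± 219 with auxin alone (adjusted p = 0.0207), and lost its call without auxin 2 or 3 or brassinazole 2 or 3 (0.0502 to 0.0889). ndhH, for a subunit of the peripheral arm, fell to 155.4 ± 22.8, against 224.0 ± 23.4 (adjusted p = 0.0365), and lost its call without any single array but brassinazole 3 (0.053 to 0.14). ndhI, for an iron-sulphur subunit, was at 15480 ± 981 and 16710 ± 1050 (adjusted p = 0.467), and ndhA at 4773 ± 249 and 5875 ± 644 (adjusted p = 0.0619). ndhD read 5696, 5859 and 5489 with brassinazole and 6338, 6216 and 6175 with auxin alone, again with all brassinazole values below all auxin values but without passing (adjusted p = 0.291). The remaining ndhB, ndhC, ndhG, ndhJ and ndhK had log2 changes of -0.02 to 0.04.

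Of the 20 plastid probe sets for ribosomal proteins, 4 rose and 0 fell. That is 20%, where 7.52% of all probe sets tested passed, 3.44% higher. At an unadjusted p under 0.05 (limma), 7 were higher and 1 lower, beside 1791 and 1946 of all 17059 tested. The median log2 change of the class was 0.16, with 15 of 20 positive, beside -0.01 and 8061 of 17059. The 20 share the same arrays, and many plastid genes are transcribed together, so the 15 are not separate observations. rpl20, for a protein of the large subunit, read 769.5, 1007 and 1013 with brassinazole and 565.5, 569.2 and 459 with auxin alone. All brassinazole values were higher, with array 1 the lowest of them. Its log2 change was 0.785 ± 0.119 (limma adjusted p = 0.000967). rpl16, also of the large subunit, rose to 1676 ± 54.1, against 1062 ± 220 (log2 change 0.67 ± 0.119, adjusted p = 0.00311), and rps15, of the small subunit, to 727.6 ± 42.9, against 508.5 ± 67.3 (adjusted p = 0.00737, and 0.0579 without the 2 arrays). rps7, read by 1 probe set for both copies of the gene, was at 7383 ± 1050 with brassinazole and 5460 ± 648 with auxin alone (adjusted p = 0.0275). The groups overlapped, because brassinazole 1 lay just below auxin 3, and the call was lost without auxin 1 or 2 or brassinazole 2 or 3 (0.0822 to 0.116). The lowest of the class, rps2, read 1967, 2097 and 1157, against 2279, 2313 and 2182, with brassinazole 3 far below the other arrays of its group (log2 change -0.42, adjusted p = 0.142). The 2 probe sets of rps12 had log2 changes of -0.04 and 0.09, and rps4 was at 8204 ± 809 and 6567 ± 942 without passing (log2 change 0.33, adjusted p = 0.0816). The other members of the class that did not pass, from rpl22 to rpl32, lay between -0.25 and 0.28. rpl2 of the large subunit, read by 1 probe set for both gene copies, was at 19310 ± 1690 and 18120 ± 1550.

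The 4 subunits of the plastid RNA polymerase did not pass (limma, 1 of them, rpoA, at an unadjusted p under 0.05). rpoA was at 5476, 5968 and 5193 with brassinazole and 5481, 3523 and 3862 with auxin alone (limma adjusted p = 0.0838). Auxin 1 lay with the brassinazole arrays, and without it the log2 change was 0.58 in place of 0.39 and passed (adjusted p = 0.00414). rpoB, rpoC1 and rpoC2 had log2 changes of -0.04, 0.16 and -0.20. Of the 6 plastid members outside these classes, 1 fell (16.7%, beside 7.52% of all probe sets tested) and 5 did not pass. accD, for a subunit of the acetyl-CoA carboxylase that starts fatty acid synthesis, fell to 942.5 ± 54.3, against 1218 ± 84.0 (adjusted p = 0.019, and 0.094 without auxin 1). clpP, for a protease subunit, was at 11630 ± 764 and 9497 ± 2550, with auxin 2 low at 6659 (adjusted p = 0.22), and ycf2 had a log2 change of 0.38 (adjusted p = 0.192). Of the remaining plastid members, cemA, an envelope membrane protein gene, was at 4399 ± 622 and 4487 ± 58.6, matK, for the plastid intron maturase, at 7157 ± 617 and 6572 ± 716, and ycf1 at 3183 ± 212 and 3022 ± 473. Of 22 nuclear loci for organelle transcription, the annotation named 1 with its own probe set, AT5G15700, at 114.5 ± 4.43 and 95.54 ± 7.89 (limma adjusted p = 0.37). Of 9 for organelle RNA processing it also named 1, AT5G14580, at 101.8 ± 13.7 and 96.17 ± 20.4 (adjusted p = 0.838). The other loci of these lists were not matched to a probe set of their own, so their transcripts were not examined.

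**Figure D2:**
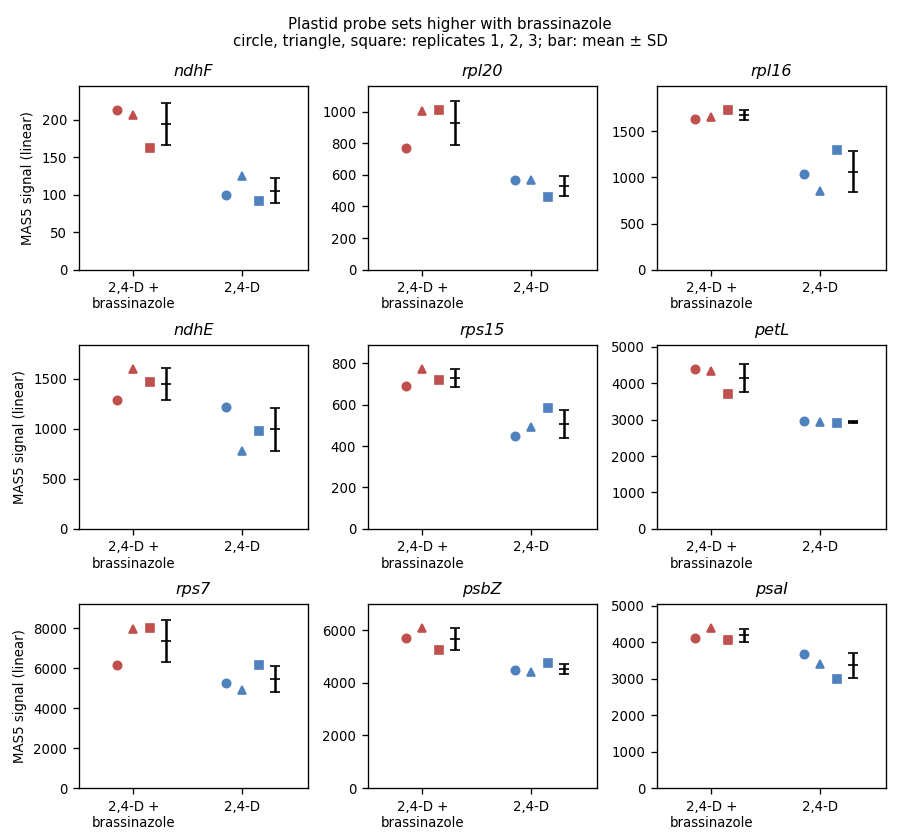
Signal (linear, axes from 0) of the 9 plastid probe sets that rose, on the 3 arrays with 2,4-D plus brassinazole (left) and the 3 with 2,4-D alone (right), with mean ± SD. All have the 3 brassinazole values above the 3 auxin values except rps7, where brassinazole 1 (circle) lies just below auxin 3 (square). The 9 were chosen as higher on these same arrays, so this follows in part from the choice. Of all probe sets tested, 12.9% had such values.

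**Figure D3:**
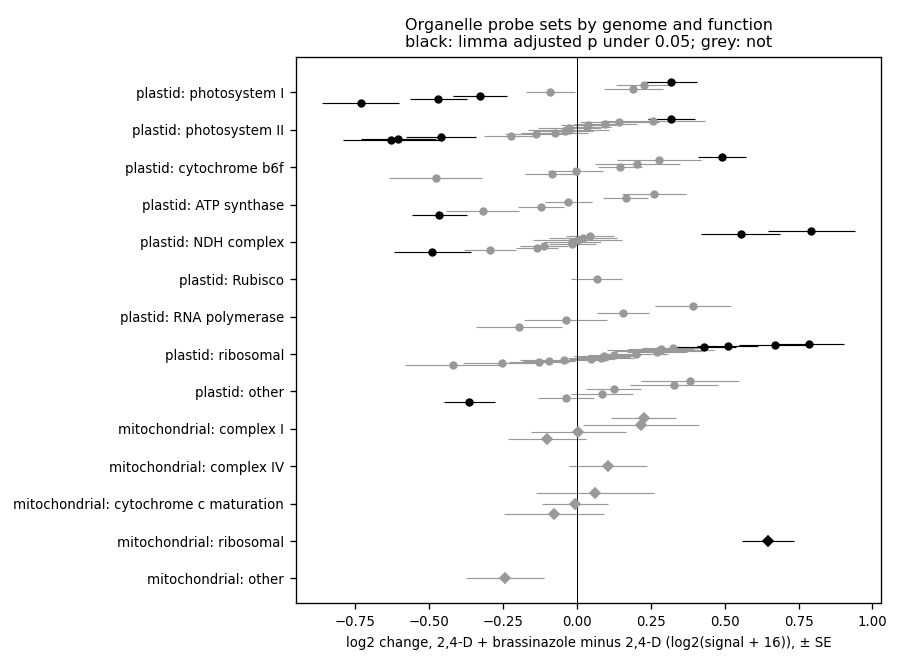
Log2 change (brassinazole minus auxin alone, ± SE) of the 87 tested plastid (circles) and mitochondrial (diamonds) probe sets by function. The plastid ribosomal class holds 4 that rose and none that fell, while photosystem I and II hold 3 each that fell and 1 each that rose.

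Genes side by side in the plastid genome shared a direction in some stretches and not in others. In the order of the RefSeq annotation (TAIR10.1 assembly), 72 pairs of neighbouring protein-coding genes had a probe set each. The pairs were taken by order alone, without regard to strand or to which neighbours are transcribed together. Across these pairs the log2 changes had a Pearson correlation of -0.069, given as a description, since all share the same 6 arrays. The signs were opposite in 38 pairs. No pair had both neighbours pass in the same direction, and 4 pairs passed in opposite directions: accD and psaI, psaI and ycf4, psaC and ndhE, and ndhH and rps15. In the psaA, psaB and rps14 group the log2 changes were -0.73, -0.09 and 0.28. In the psbB, psbT, psbN, psbH, petB and petD stretch they were -0.63, -0.03, 0.26, -0.46, -0.085 and 0.28, and psbB and psbH passed. Of the pair petL and petG, at 0.49 and -0.48, petL passed. Other stretches kept 1 sign throughout. The log2 changes of atpA, atpF and atpH were -0.12, -0.32 and -0.47, of which atpH passed. Those of ndhI, ndhA and ndhH were -0.11, -0.29 and -0.49, of which ndhH passed. Those of rps18 and rpl20 were 0.27 and 0.785, of which rpl20 passed.

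**Figure D4:**
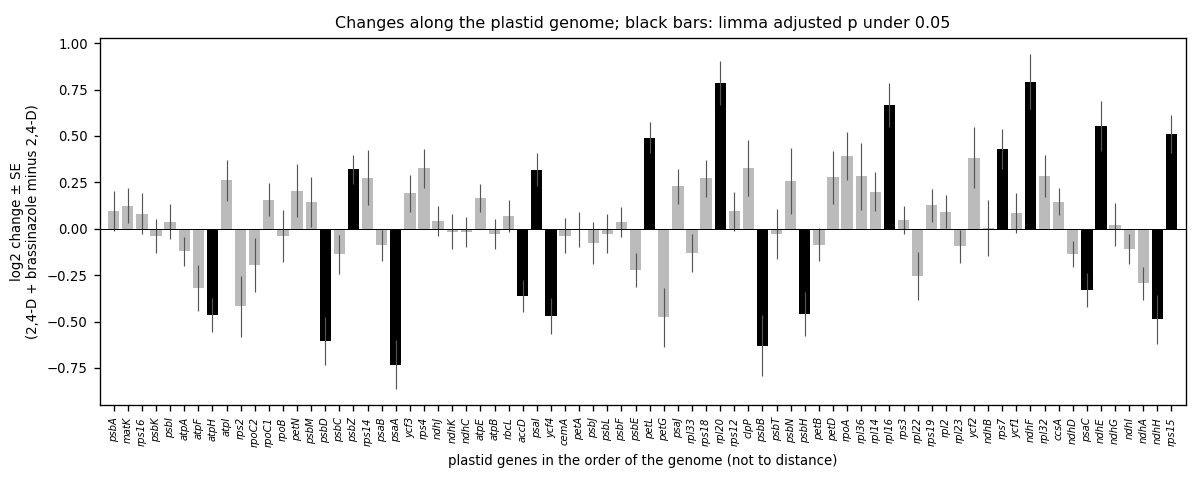
Log2 change (brassinazole minus auxin alone, bars, ± SE) of 76 plastid genes in their order along the genome, with black bars for the 18 with a limma adjusted p under 0.05. Bars that point up and down are interspersed along the genome, and no black bar stands directly beside another that points the same way.

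Fewer mitochondrial transcripts could be measured. Of 13 probe sets, 10 were bright enough to be tested, and 1 of them rose. That is 10%, where 7.52% of all probe sets tested passed, 3.44% higher. The probe set that rose is assigned to both rps3 and rpl16 of the mitochondrial genome, which encode ribosomal proteins, so no single gene is named. Its signal was 745.5, 737.8 and 724.1 with brassinazole and 435.0, 476.5 and 482.3 with auxin alone (log2 change 0.65 ± 0.0869, limma adjusted p = 0.000404). The replicates lay close together and the groups far apart, a 1.57-fold rise. A large part of the mitochondrial genome has a copy in chromosome 2, so signals of mitochondrial probe sets may include transcripts of such copies. For complex I, which takes electrons from NADH, 4 of 5 members were tested and 0 passed (0 also at an unadjusted p under 0.05), with log2 changes of -0.10 to 0.23. nad4 was at 886.8 ± 62.6 and 761.1 ± 122 (adjusted p = 0.257). cox2, of the terminal oxidase, was at 139.1 ± 16.4 and 127.8 ± 7.03. For cytochrome c maturation, ccb382 and ccb452 were at 363.3 ± 106 and 376.6 ± 58.6, and at 252.6 ± 17.3 and 254.1 ± 24.1, with no settled sign (log2 changes of -0.08 and -0.01). orfX was at 109.1 ± 10.2 and 131.6 ± 4.41 (adjusted p = 0.313). The 3 not tested, ccb203, nad7 and matR, averaged 34.3 or less in both groups.

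In the nucleus, 7 of 22 loci of the respiration list were named and 1 passed. SDH2-1, for the iron-sulphur subunit of succinate dehydrogenase, rose to 2076 ± 61.7, against 1687 ± 126 (log2 change 0.30 ± 0.0811, limma adjusted p = 0.0387). It was lost on leaving out any single array except auxin 1 (adjusted p of 0.071 to 0.144), without the variance trend and with no filter. A second, dim probe set of the gene was not tested.

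Of the 45 members with no annotation entry, 22 were tested and 3 rose. These were 2 of 9 tested among the chromosome 2 numbers (22.2%) and 1 of 13 others (7.69%), where 7.52% of all probe sets tested passed. The probe set 245038_at read 421.1, 464.3 and 375.9 with brassinazole and 205.3, 245.2 and 213.8 with auxin alone (log2 change 0.88 ± 0.112, limma adjusted p = 0.000253), a 1.84-fold rise. Its number lies among those of chromosome 2 probe sets, so it may not belong to an organelle genome. 244990_s_at rose to 159.4 ± 12.7, against 105.7 ± 22.1 (adjusted p = 0.0418), and lost its call without auxin 1 or 2 or brassinazole 1 or 2 (0.109 to 0.149). 245035_at, also among the chromosome 2 numbers, rose to 878.3 ± 35.6, against 710.4 ± 41.3 (adjusted p = 0.047), and lost its call without any single array (0.0517 to 0.155), without the variance trend (0.105) and with no filter (0.0595). The other 19 tested had log2 changes of -0.38 to 0.31, and the 23 not tested were too dim. The 11 tested probe sets of the block that have a nuclear gene had log2 changes of -0.24 to 0.44, and 0 of them passed (1 at an unadjusted p under 0.05).

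Array by array, the plastid probe sets as a whole did not separate the groups. Together they held 2.45% to 2.68% of the signal of all non-control probe sets with brassinazole and 2.44% to 2.57% with auxin alone. Their median log2 deviation from the mean of the 6 arrays was -0.04, 0.09 and -0.01 on brassinazole 1, 2 and 3, against -0.01, -0.04 and 0.00 on auxin 1, 2 and 3. Over the 20 ribosomal probe sets it was -0.03, 0.22 and 0.17, against -0.07, -0.10 and -0.05, so the groups did not overlap, with brassinazole 1 close to the auxin arrays. Over the 22 photosystem probe sets it was -0.06, 0.03 and -0.15, against 0.02, -0.04 and 0.09, and the groups overlapped. Over the NDH probe sets the groups overlapped as well. The 10 tested mitochondrial probe sets, which include the one that rose, held 0.0172%, 0.0189% and 0.0173% of the signal on brassinazole 1, 2 and 3. On auxin 1, 2 and 3 they held 0.0142%, 0.016% and 0.0165%, without overlap. Their median deviations did overlap, at -0.053, 0.161 and 0.032, against -0.112, -0.001 and 0.107. Auxin 1 was the lowest array in 5 of the 10, and brassinazole 2 the highest in 5.

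Brassinazole 3 was more often at the extremes than the other arrays of its group, in the whole table and in plastid transcripts. Over all 17059 probe sets tested it was the lowest of the 6 arrays in 3830 and the highest in 3661, against 2407 to 2771 and 2245 to 2475 for brassinazole 1 and 2. Over the 77 plastid probe sets it was the lowest in 23 and the highest in 12, against 10 and 7 for brassinazole 1, and 2 and 22 for brassinazole 2. Among the auxin arrays, auxin 3 was most often at the extremes. It was the lowest in 3075 and the highest in 3436 of all probe sets tested, and in 14 and 19 of the plastid ones. Brassinazole 3 was below both others of its group in 35 of 77 plastid probe sets, above both in 19 and between them in 23. It lay below both by more than 0.4 on the log2 scale in 9, and above both by that much in 0. The 9 were rps2, atpF, psbB, psbM, rpl22, petG, psbT, psaA and psbH. The log2 change of psaA was -0.55 without that array and still passed (limma adjusted p = 0.00262), and that of rpl20 was 0.72 (adjusted p = 0.00439). Brassinazole 3 was also the highest of the 6 arrays in 9 of 9 probe sets for the hybridisation spikes, with a median of 1.42 times the mean of the other 5. The part of this in the low plastid values was not tested. The spread within groups was much the same for plastid probe sets (median SD of 0.127 with brassinazole and 0.137 with auxin alone, log2) as for all tested (0.124 and 0.119).

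**Figure D5:**
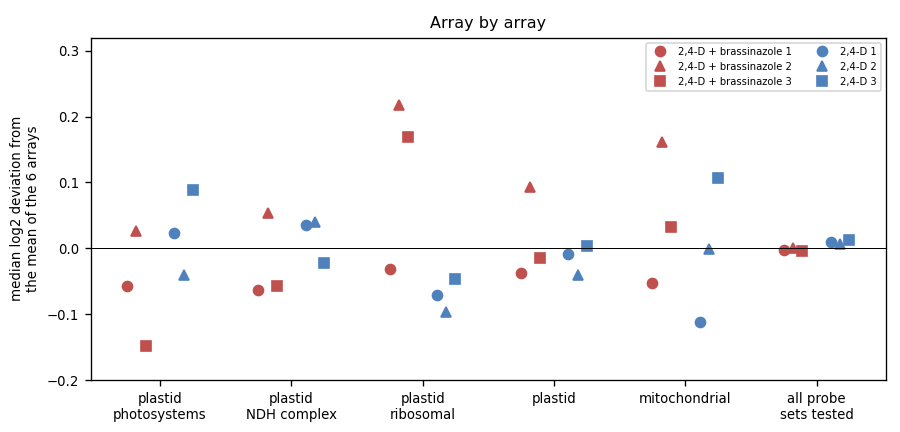
Median log2 deviation from the mean of the 6 arrays, for each array with 2,4-D plus brassinazole (red, left in each pair) and with 2,4-D alone (blue, right), by set of probe sets. Only the plastid ribosomal set among the 5 organelle sets has all 3 brassinazole arrays above all auxin arrays.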

How the data were processed

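Each of the 6 arrays gave the deposited intensity of 22810 probe sets, on a linear scale. MAS5 is named in the submitters' processing notes, and the trimmed mean of the middle 96% was 500 on every array, so absolute changes in total RNA were not measured. Intensities carry no counts, and the number of arrays limits the precision. Genes were named from the platform annotation. Mitochondrial members were placed by symbol, because their gene IDs were not in the RefSeq table (TAIR10.1), which gave names and gene order only.

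The 17059 of 22746 non-control probe sets above the 25th percentile of mean signal were tested with limma 3.58.1 (R 4.3.3) on log2(signal + 16), with eBayes and a mean-variance trend, and p-values were Benjamini-Hochberg adjusted over all of them. The threshold was an adjusted p of 0.05. Differences are 2,4-D plus brassinazole minus 2,4-D alone, and the pseudocount of 16 makes those of dim probe sets too small. The fit was checked on simulated data.

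Members and gene lists were chosen with earlier results of these data known. The naming rule took up to 12 members called in each direction by size of change, the brightest and most changed member of each function class, the 5 brightest of each genome, and for each nuclear list up to 4 called or, with none called, the 2 of smallest p. Others (psaB, ycf3, psbA, psbC, psbT, psbN, petD, petG, ndhA, rps2, rps14, rpoB, rpoC1, rpoC2, atpF, atpI, atpA, rpl22, psbE, psbF, psbI, psbJ, psbK, psbL, petA, ccsA, ndhB, ndhC, ndhD, ndhG, ndhJ, ndhK, rps4, rps12, rpl32, cemA, matK, ycf1, 245035_at and PYK10) were named after their values were seen. The genes rps18 and cox1 and the untested ccb203, nad7 and matR are also named outside the rule. For nuclear photosynthesis only values of the list as a whole are given. Alternatives changed the pseudocount (1, 64), the filter (none, 50th percentile), the trend, the normalization (median, quantile, scaling without organelle probe sets), the replicate block and the arrays used. Leaving out 2 arrays together was added after seeing the data.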

Additional observations from a re-analysis of the deposited data

Results flagged for a closer look

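The table held 22810 probe sets, and all but 22746 of them were the array's own controls. Of these control probe sets, which entered no comparison, 6 had all brassinazole values outside the range of the auxin values, and all 6 were higher with brassinazole. The 5S rRNA control differed by 0.674 on the log2 scale, at 230 to 284 with brassinazole and 134 to 174 with auxin alone. The middle ubiquitin control differed by 0.373, at 7970 to 8530 and 5820 to 6760. The 3' GAPDH control differed by 0.369 (6070 to 6640 and 4610 to 5210), the middle one by 0.171 (7400 to 8330 and 6940 to 7260) and the 5' one by 0.152 (3900 to 4390 and 3610 to 3690). The 5' GAPDH control of the second set differed by 0.167 (11900 to 12500 and 10200 to 11400). These differences were not tested. Over all probe sets tested, 27.2% had groups that did not overlap, a larger share than these 6 make of the control probe sets.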

How the results depend on the processing

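The 13 members higher and 9 lower (9 and 9 of them plastid) became 7 and 5 (5 and 5) with no filter, where 22746 probe sets were tested, and 7 and 1 (5 and 1) without the variance trend, where psaA alone stayed lower. Leaving out 1 array gave 8 to 13 higher and 4 to 9 lower (6 to 11 and 4 to 9 plastid), and leaving out auxin 1 and brassinazole 3 gave 10 and 4 (8 and 4). The other settings gave 11 to 13 and 8 to 10. Of all probe sets tested, 7.52% passed in the main fit, 3.9% with no filter, 4.43% without the trend and 4.78% without the 2 arrays. Of the 22 members called, 7 passed under every alternative that tested them (245038_at, ndhF, rpl20, rpl16, the shared rps3 and rpl16 probe set, petL and psaA; ndhF was not tested at the 50th percentile), 5 were lost under 1 to 3 alternatives, 10 under 6 or more, and all 22 kept their sign. psbD and atpH were lost only without the trend (adjusted p = 0.0618 and 0.0506), and ycf4 there and without 2 arrays (0.0588). The 1 nuclear list gene, SDH2-1, became 0 with no filter and without the trend, and 0 to 1 with an array left out. The plastid median stayed between 0.008 and 0.081, and the mitochondrial one between -0.03 and 0.133, with an array left out. Changes of sign occurred in members that did not pass: ccb382 and atpB (0.164 and 0.009 without 2 arrays) and ccb452 (0.015 median centred, 0.023 quantile normalized), and these, rbcL, petB and psbM with 1 array left out. Those fits ranged from -0.278 to 0.129 (ccb382), -0.076 to 0.025 (atpB), -0.006 to 0.127 (rbcL), -0.142 to 0.015 (petB), -0.007 to 0.348 (psbM) and -0.081 to 0.042 (ccb452). Where construction does not show it, the cause was not tested. With the replicate number as a block, 12 members were higher and 8 lower, and the calls of psbH and 244990_s_at were lost (0.0511 and 0.0639). Same-numbered arrays had correlated deviations of 0.0372, 0.0625 and 0.0491, under the 0.1 taken to show pairing, although every array correlated best with its own number. Signals near the dimmest tested, 34.23, were too uncertain to order.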

Other observations

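The mitochondrial gene cox1, for a core subunit of the terminal oxidase, is read by a probe set outside the numbered block. Its signal was 383.3, 351.6 and 329.0 with brassinazole and 317.6, 324.8 and 292.7 with auxin alone. All brassinazole values lay above all auxin values, but the change did not pass (log2 change 0.18 ± 0.101, limma adjusted p = 0.338). The probe set of ccb203, a cytochrome c maturation gene, was too dim to be tested, at 29.51, 32.32 and 40.97 with brassinazole and 21.88, 9.725 and 18.63 with auxin alone.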
